A study of Bos taurus with 2 samples.

Results

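Branched-chain amino acid (BCAA) breakdown is described here by 10 genes, *BCAT2*, *BCKDHA*, *BCKDHB*, *DBT*, *BCKDK*, *PPM1K*, *IVD*, *ACADSB*, *MCCC1* and *HIBCH*. They were chosen by their place in the pathway, from the transaminase to mitochondrial oxidation, with earlier results of these data known. Their probes were found by matching the accession of each probe to the gene symbol. Probes were matched for 9 of the 10 genes, with 18 probes in all, and 19554 genes on the array had a value. No probe had an accession matched to *HIBCH*, the hydrolase of 3-hydroxyisobutyryl-CoA in valine breakdown, which was therefore not analysed here. The RNA came from the *longissimus thoracis* (LT) muscle of Japanese Black fetuses, taken around day 260 of gestation (8.5 months). The dams of the HN group received 120% of their nutritional requirement and those of the LN group 60%, before and throughout pregnancy, and all were inseminated with male-sorted semen of 1 sire. Each group was measured as 1 pool of RNA from 4 fetuses on 1 array, the HN pool from the heaviest fetuses of its group and the LN pool from the lightest. Diet and this selection by BW cannot be told apart, no spread between fetuses is known, and no test or p-value was possible.

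Leucine, isoleucine and valine are broken down largely outside the liver, with skeletal muscle as a main site. The mitochondrial transaminase BCAT2 moves their amino group to 2-oxoglutarate, and the branched-chain 2-oxoacid dehydrogenase (BCKDH) complex then commits the carbon skeletons to oxidation. The E1 component of this complex is built from BCKDHA and BCKDHB, its E2 core from DBT and its E3 component from DLD, which other complexes share. The kinase BCKDK switches the complex off by phosphorylating BCKDHA and the phosphatase PPM1K switches it on, after which each amino acid follows its own branch.

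Signals are given as log2 intensities after quantile normalization of the 2 arrays, and each difference as the log2 ratio of LN to HN, which is above 0 where the LN pool was higher. Each gene was given the average of its probes that were well above background. The value after ± is the array error, propagated from the software's estimate for each spot, whose median was 10.3% of the signal in HN and 10.5% in LN. It covers neither the fetuses nor the pooling. Genes were counted as higher or lower in the LN pool past a log2 ratio of 0.32 in either direction, a signal at least 25% higher or 20% lower than in HN. This threshold lies above the array error of a bright single probe, 0.20, without being far beyond it. On the arrays, 74.5% of the spots in HN and 70.9% in LN were well above background, no spot was saturated, and repeated spots of 42 probes gave an SD of 0.085 in log2 ratio. The markers of the labelled tissue were bright, with *ACTA1*, the skeletal muscle actin, at a log2 signal of 17.57 in HN and 17.53 in LN.

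Most of the 9 genes measured were higher in the LN pool. This did not extend to the 25 other genes of the pathway with a value, whose median log2 ratio was 0.033. Both sets were chosen with earlier results of these data known, and the contrast between them was not tested. Of the 9 genes, 6 were past the threshold as higher (*DBT*, *PPM1K*, *MCCC1*, *BCKDHB*, *IVD* and *BCAT2*) and 0 as lower, while 8.85% of all genes were past it in the higher and 9.11% in the lower direction. Their median log2 ratio was 0.41, against -0.0033 for all genes. The 3 others were *ACADSB*, *BCKDK* and *BCKDHA*, all closer to 0 than their array error. The share of all genes past the threshold was also taken over the 7806 genes within the range of mean signal of the 9 genes and without a dim probe, a choice made after the values had been seen. In that range, 3.27% were past the threshold as higher and 4.53% as lower. Each of the 6 genes lay above 93.0% to 96.2% of all genes, so none was among the extreme differences on the array. Whole muscle was used, and fewer cells of a type cannot be told apart from less RNA per cell in any of these values.

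**Figure D1:**
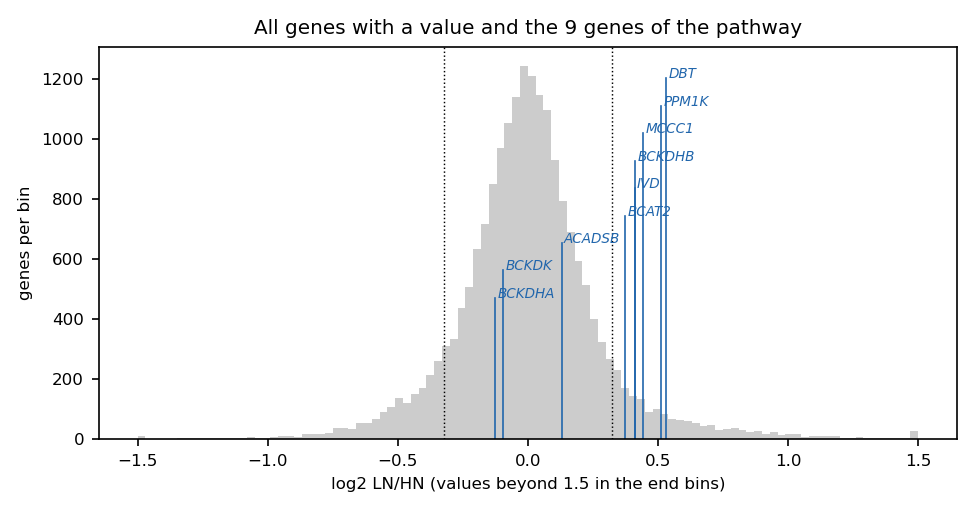
Histogram of log2 ratio over the 19554 genes with a value, in genes per bin, with a blue line at the value of each of the 9 genes and dotted lines at the threshold in each direction. *DBT* at 0.53 is the highest and *BCKDHA* at -0.12 the lowest, and 6 genes lie to the right of the upper dotted line.

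The transaminase was measured by 1 usable probe. *BCAT2* gave log2 signals of 8.36 (HN) and 8.73 (LN), so its signal was 1.29-fold higher in the LN pool, with a log2 ratio of 0.37 ± 0.20. The other probe of *BCAT2* was not well above background on either array, with intensities of 2.70 in HN and 5.68 in LN. It was left out, and with it kept the gene value was 0.89. For *BCAT1*, the cytosolic form of the enzyme, the 3 probes lay between -0.18 and -0.085 and averaged -0.12 ± 0.15. The mitochondrial and the cytosolic form thus differed by 0.50 ± 0.25 in log2 ratio, with *BCAT1* itself within its array error.

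Within the BCKDH complex the components differed from each other. *BCKDHA*, the subunit that carries the regulatory phosphorylation, was near equal in both pools. Its probes had log2 signals of 13.10 and 12.97 in HN and of 13.00 and 12.82 in LN, giving log2 ratios of -0.10 and -0.15 and a gene value of -0.12 ± 0.14. *BCKDHB*, the partner subunit in E1, had 1 probe with 9.70 in HN and 10.12 in LN, which is 1.33-fold higher at a log2 ratio of 0.41 ± 0.20. These E1 subunits thus differed by 0.54 ± 0.25 in log2 ratio. *DBT*, the E2 core, had the highest value of the 9 genes, 0.53 ± 0.15 or 1.45-fold. Its probes had log2 signals of 8.36 and 6.21 in HN and of 9.04 and 6.60 in LN, so both were past the threshold (0.67 and 0.39). *DLD*, the shared E3, averaged -0.014 ± 0.14 over its 2 probes, which placed *DBT* above it by 0.55 ± 0.20. The higher signals in the LN pool thus belonged to *DBT* and *BCKDHB*, and not to *BCKDHA* or *DLD*.

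The kinase and the phosphatase of the complex also differed. *BCKDK* had a bright probe with log2 signals of 12.14 in HN and 12.18 in LN and a dim one with 4.47 and 4.24, which gave 0.040 and -0.23. Its gene value was -0.097 ± 0.16, and the probes did not point in 1 direction. After the normexp background correction the value was 0.053, and with the bright probe alone 0.040, so that no direction can be given for *BCKDK*. *PPM1K* was the most densely covered gene, with 4 probes that were all higher in the LN pool. Their log2 signals were 8.16, 7.88, 7.62 and 7.23 in HN and 8.58, 8.49, 7.97 and 7.89 in LN. All 4 were past the threshold, between 0.35 and 0.66, and the gene signal was 1.42-fold higher (0.51 ± 0.10). The lowest log2 ratio of a *PPM1K* probe lay above the highest of *BCKDK*, and the genes differed by 0.61 ± 0.19. Among all 7460 genes with 2 or more probes, every probe was past the threshold as higher in 2.20% and as lower in 2.59%. The former held for *DBT* and *PPM1K*, 2 of the 5 genes described here with as many probes, and the latter for 0 of the 5.

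**Figure D2:**
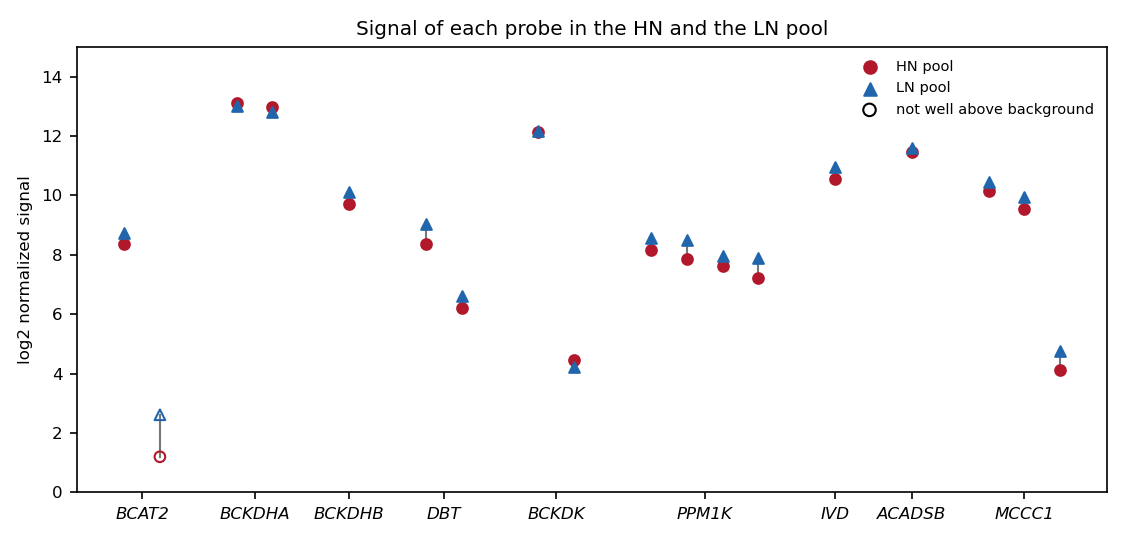
Log2 normalized signal of each of the 18 probes, grouped by gene, with the HN pool as red circles and the LN pool as blue triangles joined by a line. Open symbols mark the *BCAT2* probe that was not well above background on either array. The LN symbol is the higher one in all 4 *PPM1K*, both *DBT* and all 3 *MCCC1* probes, and the lower one in both *BCKDHA* probes.

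Past the BCKDH complex, the leucine branch was measured at its first steps. *IVD*, which oxidizes isovaleryl-CoA, had log2 signals of 10.56 in HN and 10.98 in LN from 1 probe, which is 1.33-fold higher at 0.41 ± 0.20. *MCCC1*, the biotin-carrying subunit of the carboxylase that acts next, had 3 probes with 10.14, 9.54 and 4.12 in HN and 10.44, 9.93 and 4.75 in LN. Every one of them was higher in the LN pool, with log2 ratios of 0.30, 0.39 and 0.63, the first just short of the threshold and the last from the dimmest probe. The gene value was 0.44 ± 0.13, a 1.36-fold higher signal. Its partner subunit *MCCC2* and the hydratase *AUH* had no matched probe. *HMGCLL1*, also listed among the leucine steps, had 0.41 ± 0.27 from 1 dim probe, with a log2 signal of 3.76 in HN and 4.16 in LN, and 0.072 when a further probe near background was counted.

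The acyl-CoA dehydrogenases of the other branches were not past the threshold. *ACADSB*, which oxidizes the isoleucine product 2-methylbutyryl-CoA, had log2 signals of 11.47 in HN and 11.60 in LN, which differ by 0.13 ± 0.20. The difference between *IVD* and *ACADSB*, 0.28 ± 0.29, was within the array error. *ACAD8*, the isobutyryl-CoA dehydrogenase of the valine branch, had -0.20 ± 0.12, with its 3 probes between -0.23 and -0.15. *IVD* and *ACAD8* thus differed by 0.61 ± 0.24. Later in the valine branch, *HIBADH* had 0.069 ± 0.12 over 3 probes and *ALDH6A1* 0.13 ± 0.39 from a dim probe, both within their array error. *ECHS1*, a pathway enzyme shared with fat oxidation, had 0.20 ± 0.14 with probes at 0.12 and 0.27, within the threshold. Along the isoleucine branch, *HSD17B10* had 0.097 ± 0.14 and the thiolase *ACAT1* -0.26 ± 0.14. By branch, 3 of the 4 genes of the leucine steps with a value were past the threshold as higher, *IVD*, *MCCC1* and *HMGCLL1*. The dim *HMGCLL1* was past it in only 6 of 11 other ways of processing. In the valine and in the isoleucine steps, 0 of 4 were past it in either direction. For so few genes, 0 is near the shares of all genes (8.85% higher and 9.11% lower). *ABAT*, one of these valine genes, had -0.16 ± 0.51 and was past it as lower (-0.64) with probes near background counted. Whether the branches differ was not tested.

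The 6 genes past the threshold were close to each other. In order of log2 ratio they ran from *DBT* (0.53) and *PPM1K* (0.51) over *MCCC1* (0.44), *BCKDHB* and *IVD* (both 0.41) to *BCAT2* (0.37). The first and the last differed by 0.16 ± 0.25, so none of these neighbours differed beyond the array error. Over single probes, 11 of the 17 used were past the threshold as higher and 0 as lower, where 9.11% of the 31986 probes used on the arrays were higher and 9.44% lower. *BCKDHB*, *IVD*, *BCAT2* and *ACADSB* rest on 1 probe each. Under 11 other ways of processing, each of the 6 genes stayed past the threshold, with the exception of *MCCC1* at 0.30 when its brightest probe stood for the gene.

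**Figure D3:**
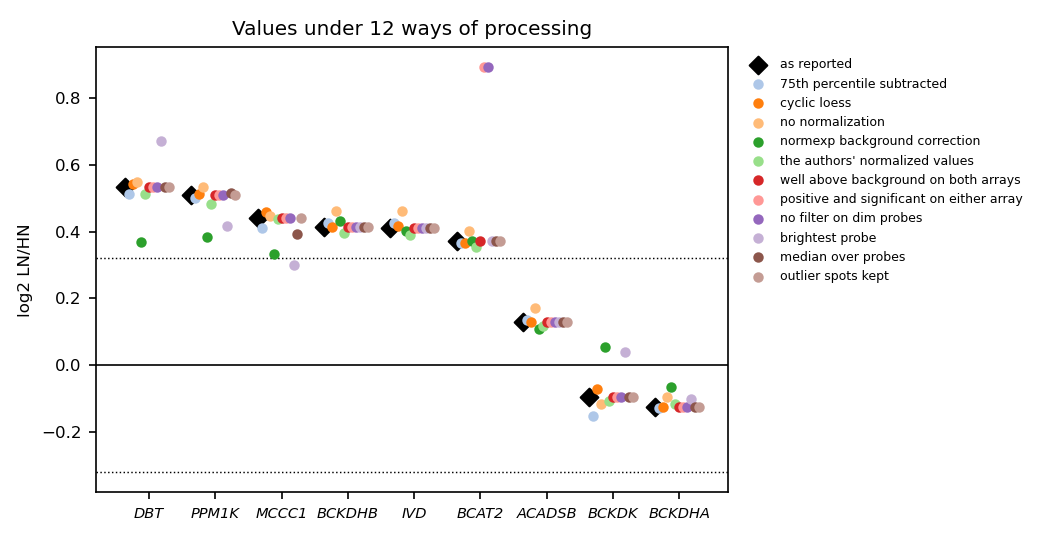
Log2 ratio of LN to HN of the 9 genes as reported (black diamonds) and under 11 other ways of processing (coloured points), with dotted lines at the threshold in each direction. The points of *BCAT2* at 0.89 count its probe near background, and *BCKDK* is the only one of the 9 genes with points on both sides of 0.

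The remaining enzymes of the pathway were spread around 0. A list of 27 further genes of BCAA breakdown had 25 with a value, of which 13 were above and 12 below 0, with a median log2 ratio of 0.033. Past the threshold, 2 were higher (*HMGCLL1* and *MMUT*) and 2 lower (*HADHA* and *HADHB*), a share near that of all genes (8.85% and 9.11%). *MMUT*, the mutase that carries propionyl-CoA carbon from valine and isoleucine into the tricarboxylic acid cycle, had 0.36 ± 0.10 over 4 probes (0.23 to 0.62). *PCCA*, a subunit of propionyl-CoA carboxylase, had 0.25 ± 0.14, whereas its partner *PCCB* had 0.033 ± 0.14. *HADHA* and *HADHB*, which form the trifunctional protein of fatty acid oxidation, had -0.34 ± 0.12 and -0.45 ± 0.12, with all 3 probes of each between -0.52 and -0.32. Under the 11 other ways of processing, *HADHB* was past the threshold in 11, *HADHA* in 7 (nearest to 0 at -0.30) and *MMUT* in 8 (lowest at 0.25), and *MMUT* had 0.28 with 1 of its probes left out.

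**Figure D4:**
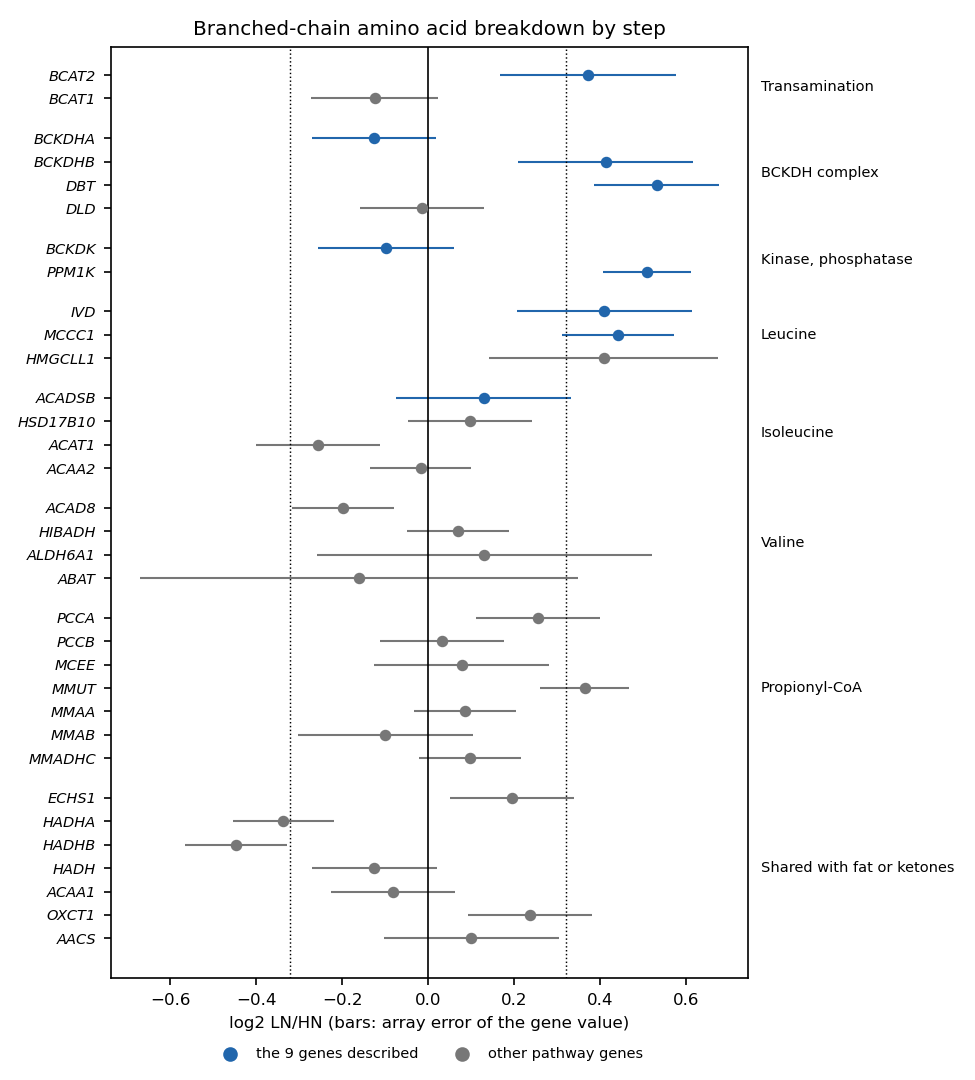
Log2 LN/HN of the genes of BCAA breakdown, ordered by step from top to bottom, with bars for the array error of the gene value and dotted lines at the threshold in each direction. Blue points are the 9 genes described and grey points other genes of the pathway. Points past the right dotted line are *BCAT2*, *BCKDHB*, *DBT*, *PPM1K*, *IVD*, *MCCC1*, *HMGCLL1* and *MMUT*, and points past the left one are *HADHA* and *HADHB*.

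The BCKDH complex was set beside the pyruvate dehydrogenase (PDH) and 2-oxoglutarate dehydrogenase complexes, which have the same architecture and, for PDH, a kinase and phosphatase switch of the same kind. The catalytic genes of PDH were near 0, with *PDHA1* at 0.046 ± 0.10, *PDHB* at -0.030 ± 0.14 and the E2 gene *DLAT* at 0.016 ± 0.20. *DBT* lay above *DLAT* by 0.52 ± 0.25 and above *DLST*, the E2 gene of the 2-oxoglutarate complex, by 0.55 ± 0.21. *BCKDHB* lay above *PDHB* by 0.44 ± 0.25. The E1 gene *OGDH* had -0.25 ± 0.15. Of the 4 PDH kinases, *PDK1* (0.25 ± 0.12), *PDK2* (-0.20 ± 0.21) and *PDK3* (-0.028 ± 0.15) were within the threshold, as was *BCKDK*. *PDK4*, a PDH kinase induced by fasting, had -1.28 ± 0.082 with all 8 probes between -1.57 and -0.97, and *BCKDK* lay above it by 1.18 ± 0.18. *PDP1*, a PDH phosphatase, had 0.52 ± 0.39 from a dim probe with signals of 2.82 (HN) and 3.34 (LN), and *PPM1K* minus *PDP1*, -0.014 ± 0.40, was within the array error. *PDPR*, a regulatory subunit of that phosphatase, was well above background on the HN array only and at least 1.37-fold lower in LN, with an array error of 0.49. After the normexp background correction, *PDP1* had 0.12 and *PDPR* -0.043. Of the 15 genes in this list, 13 had a value, 1 was past the threshold as higher (*PDP1*) and 2 as lower (*PDK4* and *PDPR*), counts near the shares of all genes (8.85% and 9.11%).

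**Figure D5:**
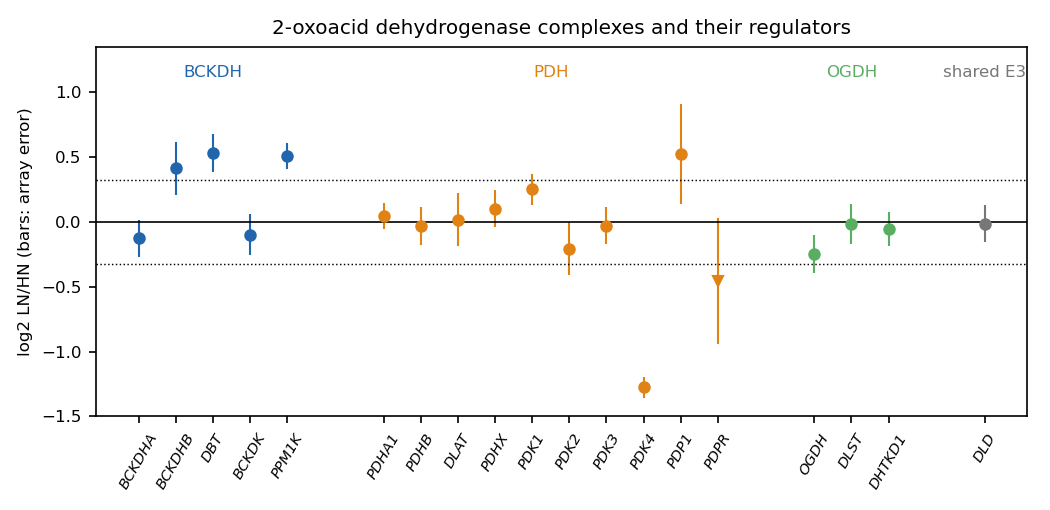
Log2 LN/HN of the genes of the BCKDH complex (blue), the PDH complex (orange) and the 2-oxoglutarate dehydrogenase group (green), each with its regulators, and of the shared E3 gene *DLD* (grey). Bars are the array error, dotted lines mark the threshold in each direction and the triangle marks a value with a dim side (*PDPR*). *DBT*, *BCKDHB*, *PPM1K* and *PDP1* lie above the upper dotted line and *PDK4* lies lowest at -1.28.

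Of 7 transporter genes with a value, 2 were past the threshold as higher (*SLC7A5* and *SLC3A2*) and 0 as lower, beside 8.85% and 9.11% of all genes, and the median log2 ratio was 0.072. *SLC7A5*, the large neutral amino acid transporter, had 1.38 ± 0.21 from 2 probes at 1.17 and 1.58, and 0.65 after the normexp correction, which in both cases is above the 9 genes of breakdown. Its partner chain *SLC3A2* had 0.64 ± 0.15 with probes at 0.45 and 0.83. By contrast, *SLC25A44*, the carrier of BCAAs into mitochondria, had 0.072 ± 0.14 with its 3 probes from 0.016 to 0.17. The other cell-surface transporters were within the threshold, with *SLC43A2* (-0.25), *SLC7A8* (-0.15) and *SLC7A7* (-0.15) below 0 and *SLC43A1* (0.094) above it. Among 7 regulators known to act on the pathway or on mitochondrial oxidation, 1 was past the threshold as higher, *KLF15*, and 0 as lower, which is near the shares of all genes (8.85% and 9.11%). *KLF15*, a transcription factor that promotes BCAA breakdown in muscle, had log2 signals of 9.34 in HN and 9.95 in LN, which is 1.52-fold higher at 0.61 ± 0.20, from 1 probe. A further *KLF15* probe was not well above background on either array, and with it kept the value was 0.31, short of the threshold. *PPARGC1A*, a coactivator of mitochondrial genes, had 0.24 ± 0.12 and *PPARD*, a nuclear receptor of fat oxidation, -0.12 ± 0.20, the lowest of these regulators.

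Nitrogen from BCAAs passes through glutamate to alanine and glutamine. Of the 6 genes of these steps, 0 were past the threshold in either direction, which for so few genes is near the shares of all genes (8.85% higher and 9.11% lower). The aminotransferases *GPT* (0.12 ± 0.14), *GPT2* (0.039 ± 0.22), *GOT1* (0.00074 ± 0.15) and *GOT2* (0.041 ± 0.12) were within their array error. *GLUL*, glutamine synthetase, had -0.20 ± 0.091, with 5 probes from -0.36 to 0.083, and was 0.083 with its brightest probe. *GLUD1*, glutamate dehydrogenase, had 0.20 ± 0.21, the highest of this list.

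The cell content of the pools was read from marker lists. Of all genes, 8.85% were past the threshold as higher and 9.11% as lower. The 11 skeletal muscle markers with a value had a summed signal of 625955 in HN and 572142 in LN, a log2 ratio of -0.13, with 1 past the threshold as higher (*MYH8*) and 2 as lower (*MYH1* and *MB*). Fibroblast markers were higher in the LN pool in 6 of 6 genes, 4 of them past the threshold, and their summed signal was 20771 in HN and 25396 in LN, a log2 ratio of 0.29. Of the 7 neutrophil markers with a value, 6 were past the threshold as higher, and the sum of the 7 had a log2 ratio of 0.82. *MPO*, among these 6, was not well above background on the HN array (log2 signal 2.37). The sums of the macrophage markers (-0.34) and of the endothelial markers (-0.29) were lower in the LN pool. Of 4 adipocyte markers, 2 were above 0 and 2 below, 1 was past the threshold as higher (*FABP4*, 0.39), and their sum had a log2 ratio of 0.29, with *LEP* not well above background on either array. The sum of 5 erythroid markers had -0.0034. The fibroblast markers and 6 of the 7 neutrophil markers thus differed in the same direction as the 6 genes of BCAA breakdown, and their part in these values was not tested.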

How the data were processed

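RNA pooled from 4 fetuses per group was labelled with Cy3 and hybridized to 1 one-color Agilent bovine array each. The authors deposited spot intensities that Feature Extraction 11.0.1.1 had corrected for background and spatial trend, without normalization between arrays, with flags and an error estimate per spot. They also deposited normalized values for 30027 probes, made by the quantile method, which by their range are log2 values (column medians 8.03 and 8.03). Log2 intensities of the 43803 non-control spots were quantile normalized with limma 3.58.1 in R 4.3.3. The 13 spots with an outlier flag were removed, leaving 43652 probes. Probes well above background on at least 1 array were used, a dim side being set to the lowest such signal on its array (log2 2.27 in HN and 2.82 in LN), or to its own signal where higher, which makes the fold a bound. Probes were named through the RefSeq gene table of ARS-UCD2.0 (26742 probes, 12603 symbols). The array design refers to another assembly, so no coordinates are given. No probe, transcript or protein sequences were used here. Later steps used Python 3.11.15, numpy 2.4.6, pandas 2.3.3 and matplotlib 3.10.9, and were tested on simulated data. The simulated LN array was the HN array with known changes and noise below the software's error estimate. Its flags were copied from HN, so the rule for dim sides was not tested. Apart from the cell type markers, all genes of the lists past the threshold, the extremes of each list and relatives of the 10 genes were named. The 10 genes and the lists were chosen with earlier results of these data known. With 1 array per group, the number of arrays limits the precision and no test was run. Alternatives covered normalization, background correction, the filter on dim probes, the value of a gene over its probes, spots with an outlier flag and the deposited normalized values. The single values of 1 further gene of the pathway are not reported here.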

Additional observations from a re-analysis of the deposited data

How the results depend on the processing

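The genes of BCAA breakdown past the threshold as higher numbered 6 in 10 of 11 alternative settings and 5 with the brightest probe of each gene, where *MCCC1* had 0.30, and 0 genes were lower in any. Their median log2 ratio ranged from 0.37 after the normexp background correction to 0.45 without normalization. The normexp correction lowered *DBT* to 0.37, *PPM1K* to 0.38 and *MMUT* to 0.25, and it was run on the median spot signal because the files used here hold no mean signal. Leaving out single probes of the 5 genes with 2 or more gave counts of 6 and medians between 0.37 and 0.41, which could not be done for *BCKDHB*, *IVD* and *BCAT2*, with 1 probe each. For the rest of the pathway, 2 genes were higher and 2 lower, and the higher count was 1 with the 75th percentile subtracted, without normalization and with the median over probes, and 0 after normexp. The lower count was 1 without normalization, after normexp, in the authors' normalized values and with the brightest probe (*HADHA* lost where *HADHB* was kept), and 3 with probes near background counted, where *ABAT* had -0.64. The genes behind the higher count also changed. With probes near background counted, *AACS* had 0.84 and *HMGCLL1* 0.072, and with the brightest probe *OXCT1* had 0.42. Over single probes left out, the higher count was 1 to 3, and 1 without a probe of *MMUT*. Among all genes past the threshold, 49.3% were higher in LN, 30.7% with the 75th percentile subtracted and 39.3% without normalization. Matching probes by a gene name column was not run, as the files used here have none. No paired analysis was possible because each group is 1 array. Low signal over background limits genes measured by dim probes, such as *ALDH6A1* and *PDP1*, both with an array error of 0.39.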

Other observations

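Charging of BCAAs to tRNA is the other main use of these amino acids in the cell. Of 6 synthetase genes, 4 had a value. The cytosolic isoleucine enzyme *IARS1* had log2 signals of 10.38 (HN) and 10.85 (LN), which differ by 0.48 ± 0.14, and both its probes were past the threshold (0.45 and 0.50). The cytosolic leucine enzyme *LARS1* had -0.11 ± 0.10, with its 4 probes from -0.44 to 0.094. Mitochondrial *IARS2* had 0.020 ± 0.10. Mitochondrial *VARS2* had -0.51 ± 0.22, from a probe at -0.061 and one at -0.95 or lower that was dim in the LN pool, and had -0.046 after the normexp correction. The values of this group thus lay on both sides of 0.

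The acyl-CoA dehydrogenases of fatty acids and the electron transfer proteins, relatives and partners of *IVD* and *ACADSB*, were spread around 0. Of 10 genes with a value, 6 were below 0, with a median log2 ratio of -0.078, and 1 was past the threshold as lower, near the share of all genes (9.11%). This was *ACADVL*, which acts on very long chains (-0.49 ± 0.10, 4 probes from -0.56 to -0.42). *IVD* lay above *ACADVL* by 0.90 ± 0.23 and above *ACADM* by 0.47 ± 0.24. *ACAD11* had the highest value, 0.28 ± 0.14, and was -0.077 with its brightest probe. *ETFA*, *ETFB* and *ETFDH*, which pass electrons from all these enzymes to the respiratory chain, had 0.014 ± 0.12, -0.19 ± 0.12 and -0.097 ± 0.13.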
